A study of Homo sapiens with 8 samples.

Results

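PTMS, PCNA, POLE3, ATP5B and DYNLT1 are 5 protein-coding genes whose RNA carried wide sites of polypyrimidine tract binding protein (PTB) toward the 3' end. The genes were chosen by the width of their PTB sites after UVC crosslinking and by the overlap of those sites with sites of the other PTB lists. Those widths and overlaps are therefore descriptions without a test. Every deposited peak on the gene's strand that overlapped the gene span was taken, which gave 82 of the 266317 peaks in the 5 deposited lists. Of these, 25 came from the UVC list, 41 from the UVA list, 16 from the iCLIP list, 0 from the list without UV and 0 from the YFP list.

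Crosslinking and immunoprecipitation (CLIP) recovers the RNA pieces that a protein contacts in living cells. GoldCLIP does so without a protein gel, by catching a Halo-tagged protein on beads that bind the tag covalently. The 8 samples were human embryonic kidney cells, named 293 in one label and 293T in another, kept under puromycin. They carried a Halo-PTB transgene and were given UVC light, UVA light or no UV (2 samples each), or a Halo-YFP transgene and were given UVC light (2 samples). YFP is a fluorescent protein used here as the control for the tag. All samples shared the Halo tag and the puromycin medium. The labels do not give the promoter of the transgenes, the UV doses, any photoreactive nucleoside added for UVA, or whether a line was a single clone. The fifth list was derived again by the submitters from an earlier PTB iCLIP study, iCLIP being a gel-based form of the assay, and the cells of that study are not named in the sources used here. Only 1 pooled list stands for each group and read numbers are not known, so values carry no replicate error and no test between conditions was possible. Peak lists also give no expression levels by which the cell line could be checked against markers.

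PTB, also called hnRNP I, binds stretches of pyrimidines in RNA. It is best known for repressing exons during splicing, and it also acts at the 3' ends of messenger RNAs, where it can affect cleavage and polyadenylation, RNA stability and localization. The 5 genes have unlike functions. PTMS encodes parathymosin, a small acidic nuclear protein. PCNA encodes the ring-shaped clamp that holds DNA polymerases on their template, and POLE3 a histone-fold subunit of DNA polymerase epsilon. ATP5B encodes the catalytic beta subunit of the mitochondrial ATP synthase, and DYNLT1 a light chain of cytoplasmic dynein, the motor that moves along microtubules. The current RefSeq symbol of ATP5B is ATP5F1B.

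The spans are in hg19. PTMS runs on the plus strand of chromosome 12 from 6875541 to 6880118 (4578 nt). PCNA lies on the minus strand of chromosome 20 from 5095599 to 5107268 (11670 nt). POLE3 lies on the minus strand of chromosome 9 from 116169518 to 116173033 (3516 nt). ATP5B lies on the minus strand of chromosome 12 from 57031959 to 57039852 (7894 nt). DYNLT1 lies on the minus strand of chromosome 6 from 159057506 to 159065804 (8299 nt). Exons, introns and untranslated regions in this build were not used here, so a position is given only along the span. Distances below count nucleotides from the last nucleotide of the span, which is at 0. The 3' end window is the last 10% of each span, from 351 nt in POLE3 to 1167 nt in PCNA. Peaks within 20 nt of each other on a strand were joined into sites.

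The 3' end position is described here and not tested, because the genes were chosen for wide shared sites there. A stretch covered in the UVC, UVA and iCLIP lists at once lay in the 3' end window of 4 of the 5 genes. In POLE3 that stretch lay just upstream of the window. The count was 2 (PTMS and PCNA) when peaks scoring under the median of their own list were left out, and 5 with a window of the last 500 nt. Of the nucleotides under peaks, summed over the 5 genes, 948 of 1471 (64.4%) lay in the window in the UVC list, 1292 of 1857 (69.6%) in the UVA list and 443 of 930 (47.6%) in the iCLIP list. All of the UVC nucleotides in the window belong to the 4 wide sites that chose the genes. The window holds 10% of each span by definition, and how peaks lie in other genes was not compared. Without POLE3, left out after its position had been seen, the shares were 77.0%, 75.9% and 64.1%.

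**Figure D1:**
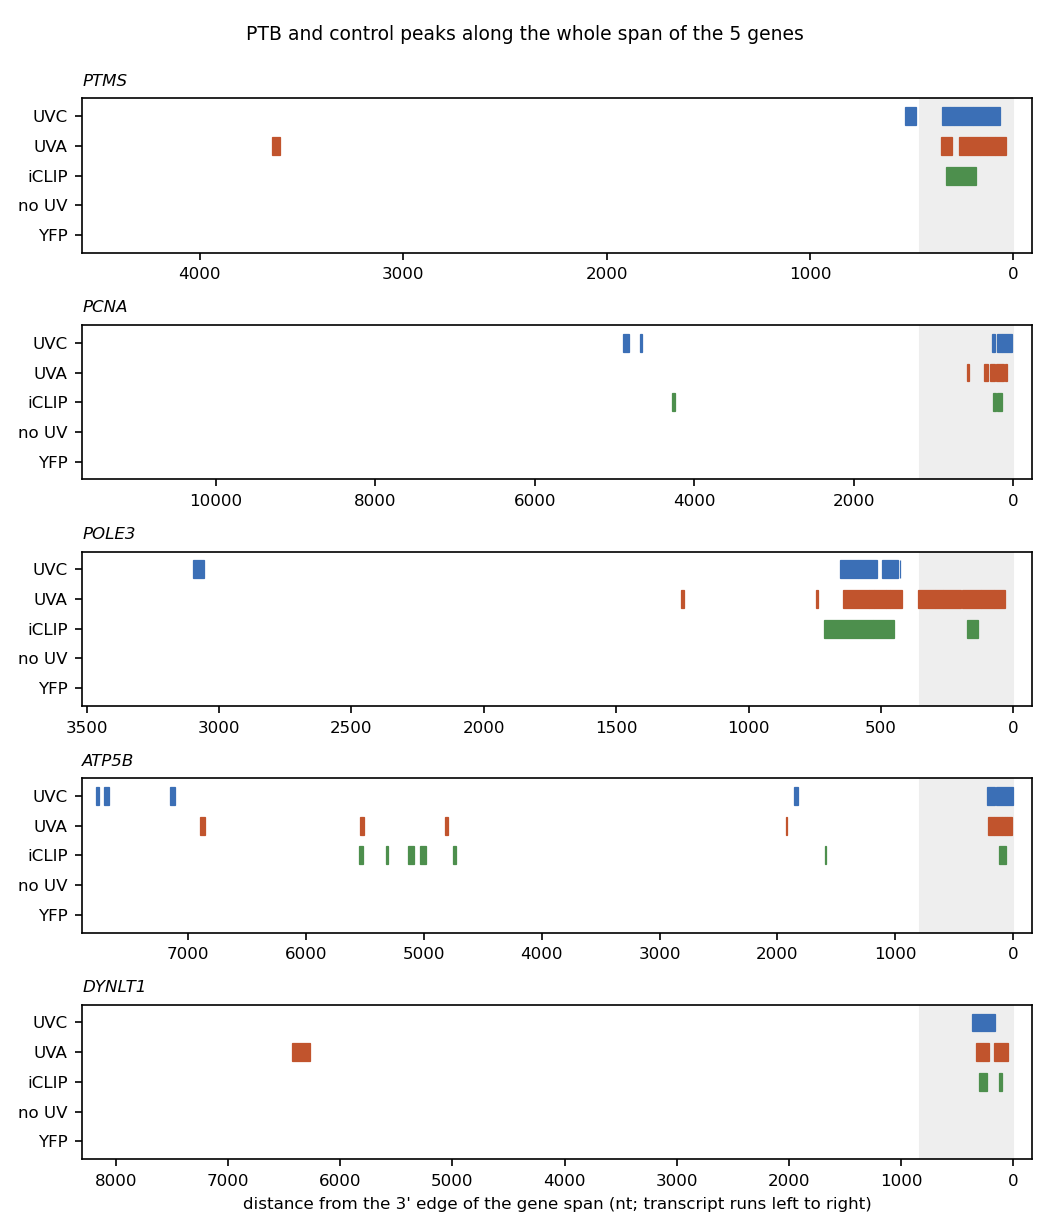
Peaks of the 5 lists (rows) along the whole span of each gene (panels), by distance from the 3' edge in nt, with the transcript running left to right and the last 10% of the span in grey. Each panel has peaks of all 3 PTB lists in its last 1000 nt, ATP5B also has 6 iCLIP peaks 1585 to 5547 nt upstream, and the rows of the list without UV and of YFP are empty.

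The wide UVC sites of the 5 genes were among the widest of the UVC list. Sites of such width were more common in the other PTB lists. The 208-nt UVA site of PCNA stood in place 875 by width in its list. In the iCLIP list the 262-nt site of POLE3 stood in place 207, and the 55-nt window site of ATP5B in place 14883. Of 80531 UVC sites, 2875 (3.57%) met both a UVA and an iCLIP site, and 2755 (3.42%) did so on no control peak. A width of at least 208 nt was reached by 15 of all UVC sites (0.0186%) and by 9 of the 2755, whose median width was 52 nt. The 5 genes held 5 of those 9, in places 2 (PTMS), 3 (PCNA), 4 (POLE3), 6 (ATP5B) and 9 (DYNLT1) by width. These are the values that chose the genes. The rule that takes peaks sets no width limit. The next narrower of the 2755 sites measured 207 nt, on chromosome 22 from 37589790 to 37589996 (minus strand), and the narrowest of the 5 genes' sites measured 208 nt.

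The wide sites differed more in how much of them the 3 PTB lists shared. In POLE3 191 nt of the UVC site lay under both UVA and iCLIP sites, the longest such stretch among the 2755 sites, whose median was 27 nt. It made up 84.1% of the UVC site. The shared stretch was 119 nt in PTMS (41.5% of the UVC site, place 18), 107 nt in PCNA (41.2%, place 33), 76 nt in DYNLT1 (36.5%, place 111) and 55 nt in ATP5B (25.1%, place 324). Width and shared length thus ranked the genes differently, with ATP5B wide in UVC and short in the stretch shared by all 3 lists.

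**Figure D2:**
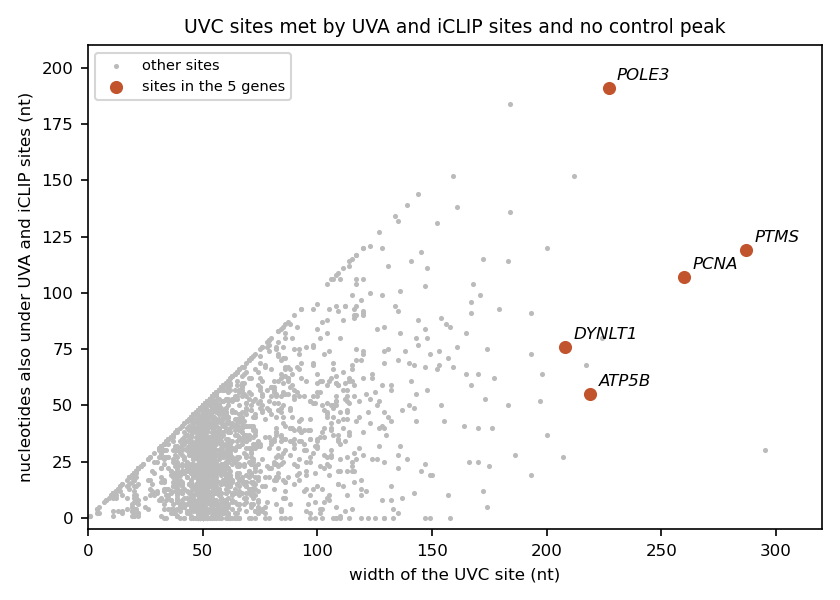
Each point is 1 of the 2755 UVC sites that met UVA and iCLIP sites and no control peak, with its width in nt (x axis) and the nucleotides of it also covered by UVA and iCLIP sites (y axis). The sites in the 5 genes (labelled) all lie at 208 nt or wider, and POLE3 is the highest point at 191 nt.

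The other 4 of the 9 sites lay outside these genes and are given by position only. The widest of the 2755 sites was on chromosome 6 from 27100981 to 27101275 (plus strand, 295 nt), with 30 nt in all 3 lists. A site of 224 nt on chromosome 12 from 54679354 to 54679577 (plus strand) shared 80 nt, and a site of 217 nt on chromosome X from 73430191 to 73430407 (minus strand) shared 68 nt. The fourth, of 212 nt on chromosome X from 107964682 to 107964893 (minus strand), was named after its value was seen. It shared 152 nt, more than PTMS, PCNA, ATP5B or DYNLT1 and less than POLE3. The 5 genes therefore were not alone in having such sites.

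In PTMS most PTB peaks lay in the window, the last 457 nt of the span. The UVC site on chromosome 12 from 6879767 to 6880053 was made of 6 touching peaks, with deposited scores of 61, 213, 177, 312, 386 and 330 in transcript order. The score is the authors' own and is mostly 10 times the negative log10 of the p-value, so a higher score means a smaller p-value. It ranks peaks within a list only. The score was therefore lowest at the upstream edge and peaked at 386, between 127 and 199 nt from the 3' edge, above 99.6% of UVC peaks.
The UVA list had a site of 58 nt from 6879761 to 6879818 (score 139) and another of 233 nt from 6879849 to 6880081. The latter held 5 touching peaks with scores of 685, 1000, 383, 525 and 290. The iCLIP list had a single peak in the whole gene, 149 nt wide from 6879787 to 6879935 (score 278). It lay entirely inside the UVC site. The highest peaks of the 3 lists overlapped, between 183 and 199 nt from the 3' edge. Downstream the lists ended at different points, at 37 nt from the edge in UVA, 65 nt in UVC and 183 nt in iCLIP. Outside the window PTMS had a UVC site of 54 nt from 6879587 to 6879640 (score 79) and a UVA site of 44 nt from 6876471 to 6876514 (score 473), neither of which met another PTB list.

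In PCNA the 3 lists met between 146 and 252 nt from the 3' edge. The UVC site from 5095612 to 5095871 was 260 nt wide and held 3 peaks, with scores of 116, 74 and 43 from the 3' edge upstream. The highest of them reached to 13 nt from the edge. The UVA site from 5095681 to 5095888 was 208 nt wide, and its 4 peaks scored 200, 325, 827 and 289 in the same order. The iCLIP site from 5095745 to 5095851 was 107 nt wide with peaks of 91 and 21, and it lay inside both other sites. The highest UVA peak, 141 to 212 nt from the edge, covered the highest iCLIP peak, 146 to 200 nt from it. The highest UVC peak of the cluster lay closer to the edge, at 13 to 141 nt, and met the UVA peak at a single position.

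PCNA differed between the lists upstream. The UVA list had no peak outside the window, and within it 2 further sites of 46 nt (score 151, 320 to 365 nt from the edge) and 29 nt (score 270, 552 to 580 nt) that met no other list. The UVC list had 2 sites far upstream, of 66 nt from 5100423 to 5100488 and of 26 nt from 5100257 to 5100282, near the middle of the span. The first of these scored 141, above the 116 of the 3' end site, so the highest UVC score of this gene was not at its 3' end. The iCLIP list had a site of 37 nt at 4241 to 4277 nt from the edge (score 19). None of these 3 upstream sites met another PTB list.

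POLE3 had the densest PTB peaks of the 5 genes in the UVA list, where 16.2% of the span was covered, against 6.83% in UVC and 8.62% in iCLIP. The stretch shared by all 3 lists lay from 116169971 to 116170161, 453 to 643 nt from the 3' edge. That is upstream of the 351-nt window. In POLE3 the stretch thus falls in a 3' end window only if the window is wider, such as the last 20% of the span. The UVC site from 116169945 to 116170171 (227 nt) held 4 peaks with scores of 16, 103, 74 and 83 from the 3' edge upstream. The first of these was a deposited peak of a single nucleotide, which was joined to the next peak upstream.

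At that position the other lists reached the end of the score scale. The UVA site from 116169940 to 116170161 (222 nt) held 3 peaks at the limit of 1000 and 2 listed with a score and a p-value of 0, which were read as past the scale. The iCLIP site from 116169971 to 116170232 (262 nt) held a peak of 183 nt at the limit and a peak of 79 nt at 272. At the limit stood 3.36% of all UVA peaks, 0.455% of iCLIP peaks and 0.217% of UVC peaks. In the 5 genes 11 of 41 UVA peaks, 1 of 16 iCLIP peaks and 0 of 25 UVC peaks were at it. The UVA peaks at the limit, with those listed at 0 counted in, lay on the shared sites of PTMS, POLE3 and ATP5B. Touching peaks of a chosen site are not separate cases, so nothing is read from these counts.

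Between this site and the 3' edge the lists parted in POLE3. The UVA list had its widest site of the gene there, 327 nt from 116169552 to 116169878, with 6 peaks scoring 262, 352, 479, 824, 541 and 434 from the 3' edge upstream. It covered 315 of the 351 nt of the window (89.7%). The iCLIP list had 1 peak of 41 nt inside it, from 116169651 to 116169691 (score 96). The UVC list had no peak within 427 nt of the edge. Upstream, UVA sites of 10 nt (score 241) and 13 nt (score 192) and a UVC site of 40 nt (score 35) met no other PTB list.

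In ATP5B the wide site reached almost to the end of the span. The UVC site from 57031963 to 57032181 (219 nt) lay 4 to 222 nt from the edge and held peaks of 141 nt (score 164) and 68 nt (score 90). The UVA site from 57031975 to 57032175 (201 nt) lay wholly inside it. Of its 6 peaks, the 5 closest to the edge were listed with a score and p-value of 0, past the scale, and the upstream one scored 275. The iCLIP list had a single peak there, 55 nt from 57032024 to 57032078, with a score of 41. This is below the iCLIP list's median of 47.

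ATP5B also had the most sites away from the 3' end. Outside the window were 4 UVC, 4 UVA and 6 iCLIP sites, between 11 and 56 nt wide. The highest iCLIP peak of the gene was among them, 56 nt from 57036937 to 57036992 with a score of 56. UVA sites scored up to 725 (11 nt, from 57033879 to 57033889). Of these 14 sites only a UVA site from 57037468 to 57037499 and an iCLIP site from 57037474 to 57037506 met each other. Their UVA peaks scored 624 and 585 and the iCLIP peak 15. In UVC the upstream sites scored 33 to 51, below both peaks of the 3' end site.

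In DYNLT1 the UVC list held a single site, 208 nt from 159057668 to 159057875, with touching peaks of 124 nt (score 85) and 84 nt (score 92). It lay 162 to 369 nt from the edge. The UVA list had 2 sites there, of 114 nt (217 to 330 nt from the edge, scores 206 and 151) and of 123 nt (49 to 171 nt, score 232). The first lay inside the UVC site and the second overlapped its downstream end. The iCLIP list had a peak inside each UVA site, of 76 nt (score 34) and 32 nt (score 19). All iCLIP nucleotides of this gene thus lay under UVA sites, and 70.4% lay under the UVC site. The highest UVA peak of the gene was elsewhere, a single peak of 159 nt from 159063777 to 159063935 (score 271) that met no UVC or iCLIP site.

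**Figure D3:**
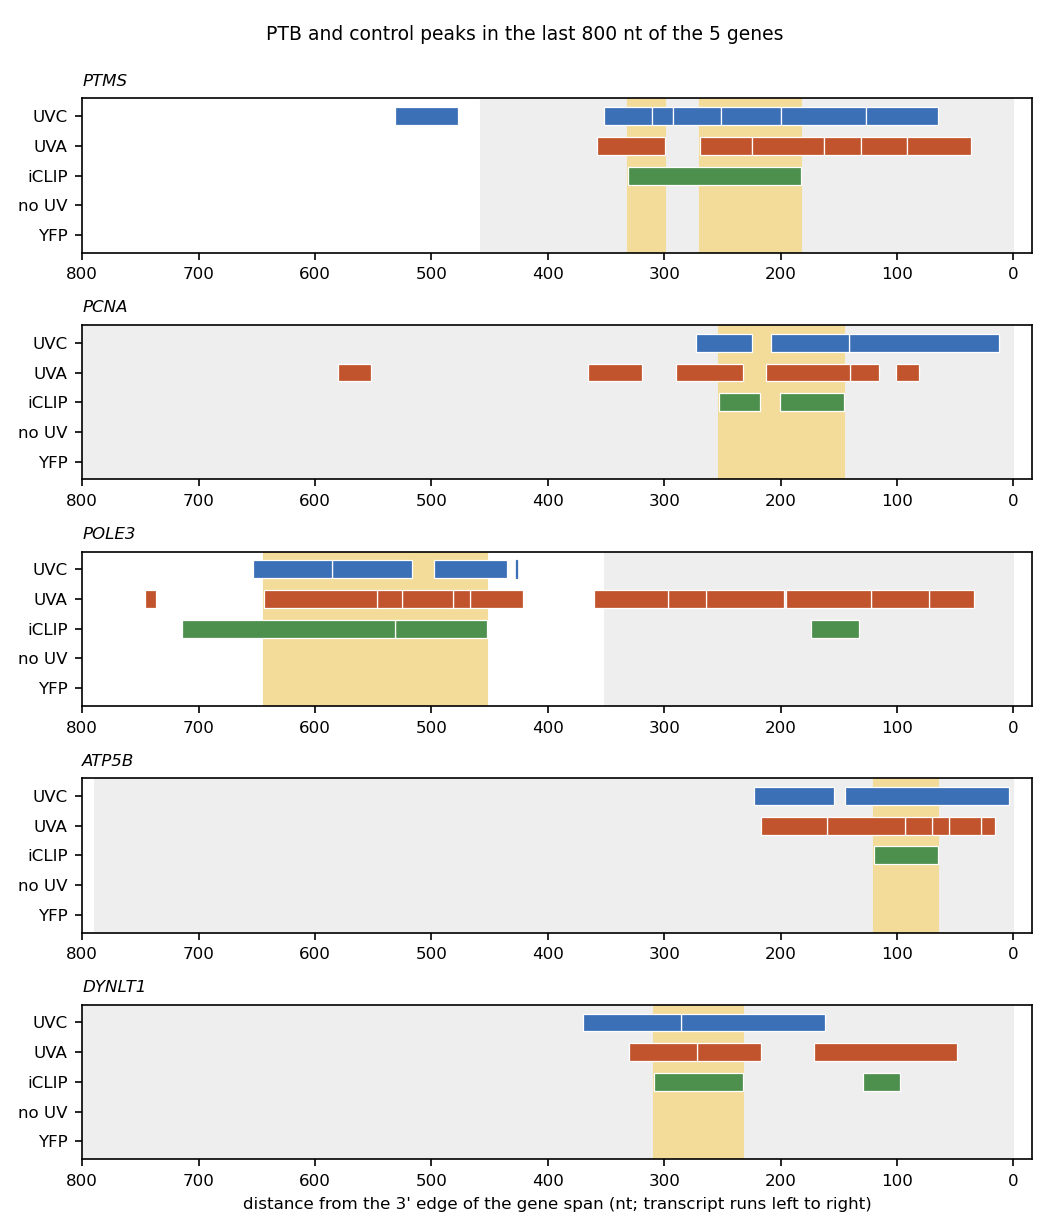
Peaks of the 5 lists (rows) in the last 800 nt of each gene (panels), by distance from the 3' edge in nt, with the last 10% of the span in grey and the stretches under sites of all 3 PTB lists in yellow. The yellow stretch lies inside the grey window in PTMS, PCNA, ATP5B and DYNLT1 and upstream of it, at 453 to 643 nt, in POLE3.

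The PTB lists differed in how far their sites extended. All nucleotides that UVC sites shared with UVA or iCLIP sites lay on the wide UVC sites that chose the genes. The shares below are therefore descriptions. As a share of each list's site nucleotides in the gene, UVC and UVA sites shared 75.4% and 76.7% in PTMS, 54.3% and 67.5% in PCNA, and 56.5% and 65.3% in ATP5B. In POLE3 81.3% of UVC and 37.9% of UVA nucleotides were shared, and in DYNLT1 59.6% and 31.3%. Of the UVC nucleotides, iCLIP sites covered 75.3% in POLE3, 43.7% in PTMS, 36.5% in DYNLT1, 30.4% in PCNA and 15.4% in ATP5B. Of the iCLIP nucleotides, UVC sites covered 100% in PTMS, 74.3% in PCNA, 70.4% in DYNLT1, 66.3% in POLE3 and 22.6% in ATP5B. UVA sites covered 79.9% of the iCLIP nucleotides in PTMS, 74.3% in PCNA, 76.6% in POLE3, 33.3% in ATP5B and 100% in DYNLT1.

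Sites inside and outside the windows are set side by side here without a test. In the windows 17 of 19 sites met a site of another PTB list, and 14 met sites of both. By list these were 4 of 4 UVC, 7 of 9 UVA and 6 of 6 iCLIP sites meeting at least 1 other list. Over the whole series 13.9% of UVC, 27.2% of UVA and 29.1% of iCLIP sites met at least 1 other PTB list, and 3.57%, 4.38% and 5.66% met both. The window sites include those that chose the genes, so nothing is read from their high share. The sites outside the windows did not enter that choice, except the 3 that make up the shared site of POLE3. Of the other 23 sites outside, 2 met another PTB list. They are a UVA and an iCLIP site of ATP5B that met each other. An overlap is counted in each list that takes part in it, here and in the windows. The 2 are a count of few sites in 5 genes and were not tested against the series.

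Site widths are given in the same way. In the window they ran from 208 to 287 nt in UVC (median 239.5), 29 to 327 nt in UVA (median 123) and 32 to 149 nt in iCLIP (median 65.5). Outside it the medians were 40 nt in UVC, 32 nt in UVA and 35 nt in iCLIP, beside 49, 40 and 39 nt over the whole lists. The UVC widths chose the genes. The widest site outside the window was the shared site of POLE3 in all 3 lists, at 227, 222 and 262 nt. After it came the UVA site of DYNLT1 at 159 nt.

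Scores gave a less uniform picture than positions. In 12 of the 15 pairs of a gene and a PTB list the highest peak of the gene lay on the wide shared site, and in 9 it lay in the 3' end window, the POLE3 site making the difference. The exceptions were PCNA in UVC, ATP5B in iCLIP and DYNLT1 in UVA, a different list each time. Both counts include ATP5B in UVA only because peaks listed at 0 were read as past the scale. By deposited scores its highest UVA peak would be the one of 725, off the shared site and outside the window. Only PTMS and POLE3 had their highest peak on the shared site in all 3 lists. These counts are descriptions, because the genes were chosen for those sites. In PTMS the iCLIP list held a single peak, and in DYNLT1 the UVC list held a single site, so for those pairs the outcome was fixed. The median score of the gene's peaks in UVA, with peaks past the scale set at the limit, ran from 219 in DYNLT1 to 725 in ATP5B, against 92 over the UVA list. In UVC it ran from 49 in ATP5B to 213 in PTMS, against 19, and in iCLIP from 18 in ATP5B to 278 in PTMS, against 47. Many of these peaks are pieces of the shared sites that chose the genes and are not separate cases. Nothing is therefore read from how far these medians lie from those of the lists. By this median ATP5B was highest of the 5 in UVA and lowest in the others. Scores depend on depth and RNA abundance, whose part in this order was not tested.

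**Figure D4:**
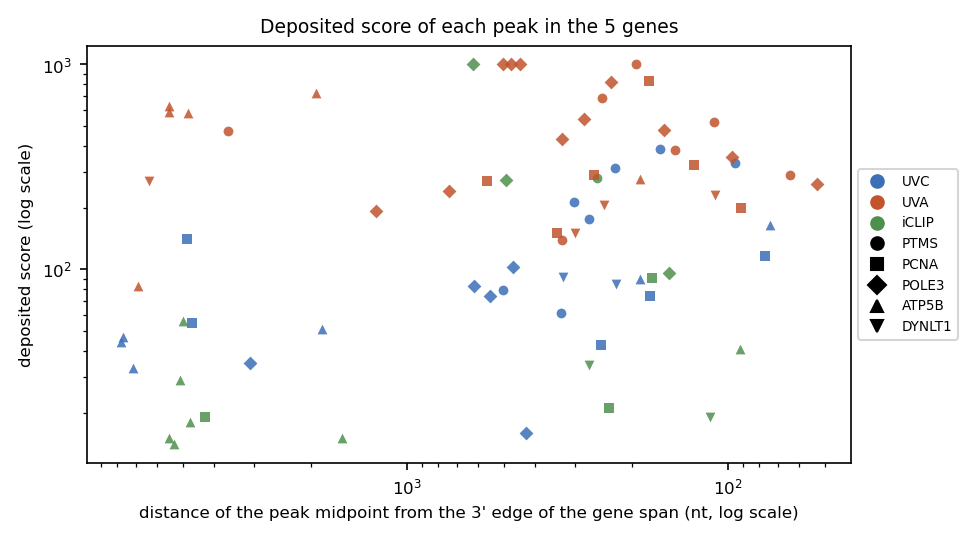
Deposited score (y axis, log scale) of each peak in the 5 genes against the distance of its midpoint from the 3' edge in nt (x axis, log scale), with colour for the list and shape for the gene. The 7 UVA peaks listed at 0 are not drawn. UVA peaks reach the limit of 1000 in PTMS and POLE3, and PCNA, ATP5B and DYNLT1 each have a list whose highest peak lies 4824 nt or more upstream.

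No peak of the list without UV or of the YFP list lay in any of the 5 genes, on either strand. Over the series 0.784% of UVC, 0.766% of UVA and 0.465% of iCLIP sites lay on a control peak, so 0 of the 45 sites in these genes is close to that background, and the wide sites had been chosen off control peaks. The control lists are short (3809 and 2136 peaks) and their depth is unknown. The nearest control peak on the gene's strand was 33228 nt from the 3' edge of ATP5B, in the list without UV. For PTMS it was 39679 nt away in the same list, and for PCNA, POLE3 and DYNLT1 it was more distant. Peaks on the other strand and past the 3' edge are given without a comparison to other genes. No PTB peak lay on the opposite strand of the spans, crossed a 3' edge, or lay in the 1000 nt past it. In the 5000 nt past the edge there were 2 UVA peaks beyond PTMS and none beyond the other genes.

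**Figure D5:**
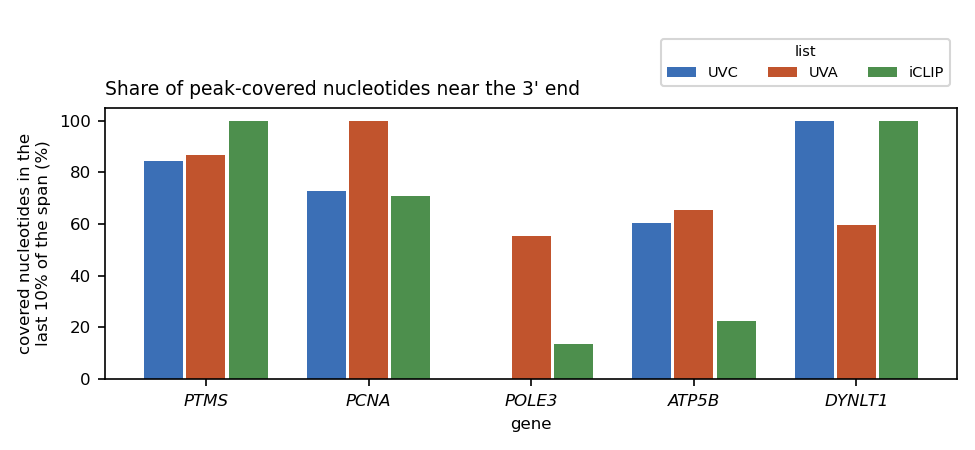
Bars give the percentage of nucleotides under peaks that lie in the last 10% of the span, for each gene (x axis) and PTB list (colour). The bars stand at 59.8% or more except in POLE3 (0% in UVC, 55.3% in UVA, 13.5% in iCLIP) and in ATP5B for iCLIP (22.6%).

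By gene, that share ran from 84.2% to 100% in PTMS, from 70.9% to 100% in PCNA and from 59.8% to 100% in DYNLT1. In ATP5B it was 60.4% in UVC and 65.3% in UVA but 22.6% in iCLIP, whose other sites lay 1585 to 5547 nt from the edge. In POLE3 the share was 0% in UVC, yet 83.3% of its UVC nucleotides, 97.7% of its UVA and 100% of its iCLIP nucleotides lay in the last 1000 nt. The widths of 3 UVC sites depend on the merging of peaks. With only touching or overlapping peaks merged, the widest part was 137 nt in POLE3, 141 nt in ATP5B and 196 nt in PCNA, all below the 208 nt used above. The UVC sites of PTMS and DYNLT1 stayed at 287 and 208 nt.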

How the data were processed

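GoldCLIP of Halo-PTB and Halo-YFP in human embryonic kidney cells, 293 or 293T by label, was analysed from the deposited peak lists. These were 1 pooled list for each of 4 groups of 2 samples, and a list of re-derived iCLIP peaks. Reads were mapped with Bowtie 1.1.2, and hg19 is named beside dm3, per the submitters' processing notes. For the peak caller, its filters and the pooling of replicates, the method is not given in the sources used here. Positions are given 1-based. A p-value with 14 decimals was deposited for every peak. The deposited score was 10 times its negative log10, rounded down, in 99.9% (UVC), 97.6% (UVA) and 98.5% (iCLIP) of peaks with a printed p-value above 0. It was taken as limited to 1000, and peaks with score 0 and p-value 0 were ranked there.

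Same-strand peaks overlapping the given spans were taken and merged within 20 nt. Sites were called shared from 1 nt. All sites in the 3' end window were described, and elsewhere the highest-scoring site per gene and list. Further sites and the regions just outside the choice were named after their values had been seen. The members and lists were chosen with earlier results of these data known. Merging and overlap were tested on simulated data. No test was run, and depth is unknown, so no interval is given. Genes related to the members were not analysed, since no hg19 annotation was used. RefSeq GRCh38.p14 served for names only, and all 5 genes were found there, ATP5B as a synonym of ATP5F1B. The scripts ran in Python 3.11.15 with scipy 1.17.1, pandas 2.3.3, matplotlib 3.10.9 and numpy 2.4.6.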

Additional observations from a re-analysis of the deposited data

How the results depend on the processing

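The count of 4 genes with a stretch in all 3 PTB lists in the 3' end window was 2 (PTMS and PCNA) when peaks had to reach the median score of their list. The iCLIP peaks of ATP5B and DYNLT1 in the window lie below that median. The count was 5 with a window of the last 500 nt or the last 20% of the span. It was 4 when strand was ignored, when peaks had to lie inside the span, with merging at 0 or 50 nt, or when the stretch had to be at least 50% of the narrowest site. The share of covered nucleotides in the window was 70.2% (UVC), 72.8% (UVA) and 52.7% (iCLIP) with the last 500 nt, and with the last 20% it was 81.7%, 82.1% and 74.5%. Without POLE3, an alternative added after seeing the data, it was 77.0%, 75.9% and 64.1%. At or above the median score the iCLIP share was 43.5%. Control peaks in the genes numbered 0 in the 3 alternatives run for them. No paired analysis was possible because each group has 1 pooled list without replicate numbers, and for the same reason no replicate could be left out.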
